A study of Mus musculus with 6 samples.

Results

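Axon guidance ligands and receptors are the secreted and membrane-bound molecules that steer growing axons and, later, shape synapses, glia and vessels. Their genes were followed here in 6 coronal mouse brain sections taken at 3 ages. The members were all genes in the count files whose symbol begins with Sema, Plxn, Epha, Ephb, Efna, Efnb, Robo or Slit followed by a digit, together with Nrp1, Nrp2, Dcc and Ntn1, with a minimum of 100 unique molecular identifiers (UMIs, counts of single captured molecules) over the 6 sections. All 62 genes that met the symbol rule passed this minimum, out of 19465 genes in the files. They comprised 7 class 3 semaphorins, 13 other semaphorins, 9 plexins, 2 neuropilins, 5 ephrin-A and 3 ephrin-B ligands, 9 EphA and 5 EphB receptors, 3 Slits, 4 Robo receptors, and netrin-1 with its receptor Dcc.

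As background, class 3 semaphorins are secreted and act mostly through neuropilins, which bind them, and plexins, which carry the signal into the cell, whereas the other vertebrate semaphorins are membrane-bound or anchored and act on plexins more directly. Ephrins are membrane-bound ligands of the Eph receptor tyrosine kinases, and binding can signal into both contacting cells. Slits are secreted ligands of Robo receptors and mainly repel axons, and netrin-1 attracts axons through Dcc. In the postnatal brain members of these families are also known in synapse formation, in oligodendrocyte development and in blood vessels.

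The sections came from male C57BL/6J mice that received no treatment, with 2 mice, 1 section each, at postnatal day 21 (P21), at 12 to 15 weeks (adult) and at 28 months (aged). Formalin-fixed sections were profiled with the probe-based Visium assay, which counts RNA in spots that each cover several cells. By the study's methods, P21 and adult sections lay directly on version 1 slides while RNA of the aged sections was transferred with a CytAssist instrument to version 2 slides, and the file headers name Space Ranger 2.0.0 for the former and 3.1.1 for the latter. The study also describes a changed probe design in the version 2 protocol, meant to make capture more sensitive. Slide version stands below for all of these differences. Age and slide version therefore cannot be told apart in any difference between aged and adult sections. No spot barcode was shared between the aged and the other files. Barcodes that recur within a slide version mark positions on the array.

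In all, 20336 spots were kept, with a median of 12074.5 to 25535 UMIs per spot depending on the section. Spots were clustered without the 62 members and 56 further guidance-pathway genes, and clusters were named from marker panels as CTX (cortex), FT (fiber tracts, the white matter), STR (striatum), HP (hippocampus), HY (hypothalamus) and TH (thalamus), with finer zones within CTX and HP and smaller zones such as the choroid plexus, meninges, reticular thalamus (RT) and medial habenula. A zone of 2050 spots led by Cyp26b1, Lypd1 and Kcng1 matched no panel and stays unnamed, and adult replicate 1 had 0 spots of the medial habenula. Levels are given as CPM, a gene's counts per 1000000 UMIs of that section and region. Sums ranged from 1541023 to 35901724 UMIs per section and region. The number of probes per gene is not given in the sources used here, so levels were compared between places and ages for the same gene and never between genes. Between aged and other sections the probes for the same gene may differ too. In such sums fewer cells of a type and less RNA per cell cannot be told apart. Replicate 1 precedes replicate 2 wherever section values are listed.

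The members were measured at very different depths. They held 1322525 UMIs in all, from 486 for Efna4 to 106756 for Epha4, with a median of 15567. A UMI of Efna4 was found in 2.27% of spots and a UMI of Epha4 in 87.0%. The summed level of all members was 3279 and 3299 CPM in the P21 sections, 3183 in each adult section, and 2921 and 2973 in the aged sections. The sum, which weighs most the members with most UMIs, thus ran slightly lower in the aged sections. By family, the median log2 fold change of aged over adult over the region tests was positive for ephrin-A ligands (0.18) and neuropilins (0.36). It was negative for each of the other families. For 6 members (Efna4, Epha1, Epha2, Ephb2, Ephb4 and Sema3b) detection lay under 10% of spots and no test was made, and Epha8, Robo4, Sema3d, Sema3f, Sema3g and Sema5b were tested in some regions only.

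Genes whose highest level among CTX, HP, TH, HY, STR and FT lay in FT in all 6 sections are described below. Their upstream sequences are shown for those that share a short motif. Smaller zones were left out of this ranking, and some of these genes, such as Sema4d, were higher in one of them. Of the 7 such members, 6 had an entry in the RefSeq promoter table (build GRCm38.p6). In 3 of the 6 the letters AACAAT or its reverse complement ATTGTT lay in the 250 bases before a transcript start listed there. Over all 32851 tabulated promoters 9.42% held it. Counted by gene over any listed start, as for the members, 10.9% of all genes held it. Of the 53 members with an entry only these 3 did. The sequences run 5' to 3' on the gene's strand, and capitals mark the match.
Ephb1, chr9:102354694-102354943, minus strand: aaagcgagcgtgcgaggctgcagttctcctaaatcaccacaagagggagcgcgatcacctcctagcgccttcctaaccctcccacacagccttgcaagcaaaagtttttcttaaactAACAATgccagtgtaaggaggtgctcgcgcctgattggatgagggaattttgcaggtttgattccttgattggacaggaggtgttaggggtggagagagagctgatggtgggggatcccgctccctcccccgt
Plxnb3, chrX:73756853-73757102, plus strand: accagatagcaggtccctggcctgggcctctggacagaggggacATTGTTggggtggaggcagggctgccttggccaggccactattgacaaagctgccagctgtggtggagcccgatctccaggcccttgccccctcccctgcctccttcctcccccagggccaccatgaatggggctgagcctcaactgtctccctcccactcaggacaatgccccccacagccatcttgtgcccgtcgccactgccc
Sema4d, chr13:51748811-51749060, minus strand: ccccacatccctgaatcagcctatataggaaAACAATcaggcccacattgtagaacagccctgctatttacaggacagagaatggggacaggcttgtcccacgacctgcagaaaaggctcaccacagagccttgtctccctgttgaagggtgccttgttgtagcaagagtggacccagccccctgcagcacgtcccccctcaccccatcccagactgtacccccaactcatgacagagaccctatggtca
Ephb1 encodes a receptor for ephrin-B ligands, Plxnb3 a plexin and Sema4d a membrane-bound semaphorin that binds B-type plexins. Sema4d has 3 starts in the table and the window of 1 of them is shown. That window lies inside the annotated span of the gene, chr13:51685529-51793747. The Plxnb3 window runs slightly past the start of that gene's annotated span, 73757090. In all, 6 motifs were searched on both strands, and they were chosen after the regional levels had been seen. ACAAAG was found in 7 of the 53 members with an entry against 18.6% of all genes and CACGTG in 4 against 6.86%. CAGCTG was found in 11 against 14.7%, TATAAA in 2 against 14.3% and TGACGTCA in 1 against 1.77%. Among the 6 FT members with an entry, ACAAAG was found in 2, CAGCTG in 2, CACGTG in 1, and TATAAA and TGACGTCA in 0. AACAAT was thus the motif with the most FT members of the 6 searched. A match describes the letters only.

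Over the fine anatomical zones, 20 of the 62 members had their highest CPM in the same zone in all 6 sections, against 18.8% of all 15417 genes with at least 100 UMIs, and the other 42 did not. In the hippocampus Epha6 (an EphA receptor) was highest in CA1-2, at 501 and 562 CPM in sections of P21 mice, 655 and 662 in adult and 664 and 742 in aged ones. Epha4, a receptor for both ephrin classes, was highest in CA3 with 676 and 742, 964 and 936, and 798 and 904 CPM. Epha7 was highest in the dentate gyrus (DG) with 432 and 493, 698 and 718, and 758 and 964 CPM. So 3 EphA receptors peaked in 3 neighbouring cell fields of the same structure in every section, and for all 3 both P21 values lay below both adult values there. The share of all genes with that order of ages in these zones is not given here, so the order only describes these genes. Sema3e, Efna3 and Sema6c also peaked in CA1-2, and Sema5a and Plxna4 in DG.

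Outside the hippocampus, Sema4g peaked in TH, Ephb6 and Sema5b in deep CTX, and Ephb1, Efnb3 and Plxnb3 in FT. Sema3b (43.7 and 39.9, 84.1 and 59.8, 108 and 91.5 CPM) and Plxnb2 (232 and 224, 271 and 264, 312 and 264 CPM) peaked in the choroid plexus, the tissue that secretes cerebrospinal fluid. Epha2, Ephb4 and Sema3g peaked in the meninges, and Plxnd1, a plexin known from vessel patterning, peaked in the unnamed zone. The medial habenula was the highest zone in 5 of the 5 sections that contained it for Robo3, Nrp2, Plxnc1, Epha8 and Sema4d. Robo3, the divergent Robo receptor of commissural axons, measured 287 and 312 CPM there in the P21 sections, 194 in adult replicate 2 and 460 and 484 in the aged sections. In TH next to it, Robo3 lay between 0.968 and 13.0 CPM. The habenular values rest on 11 to 28 spots per section.

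**Figure D1:**
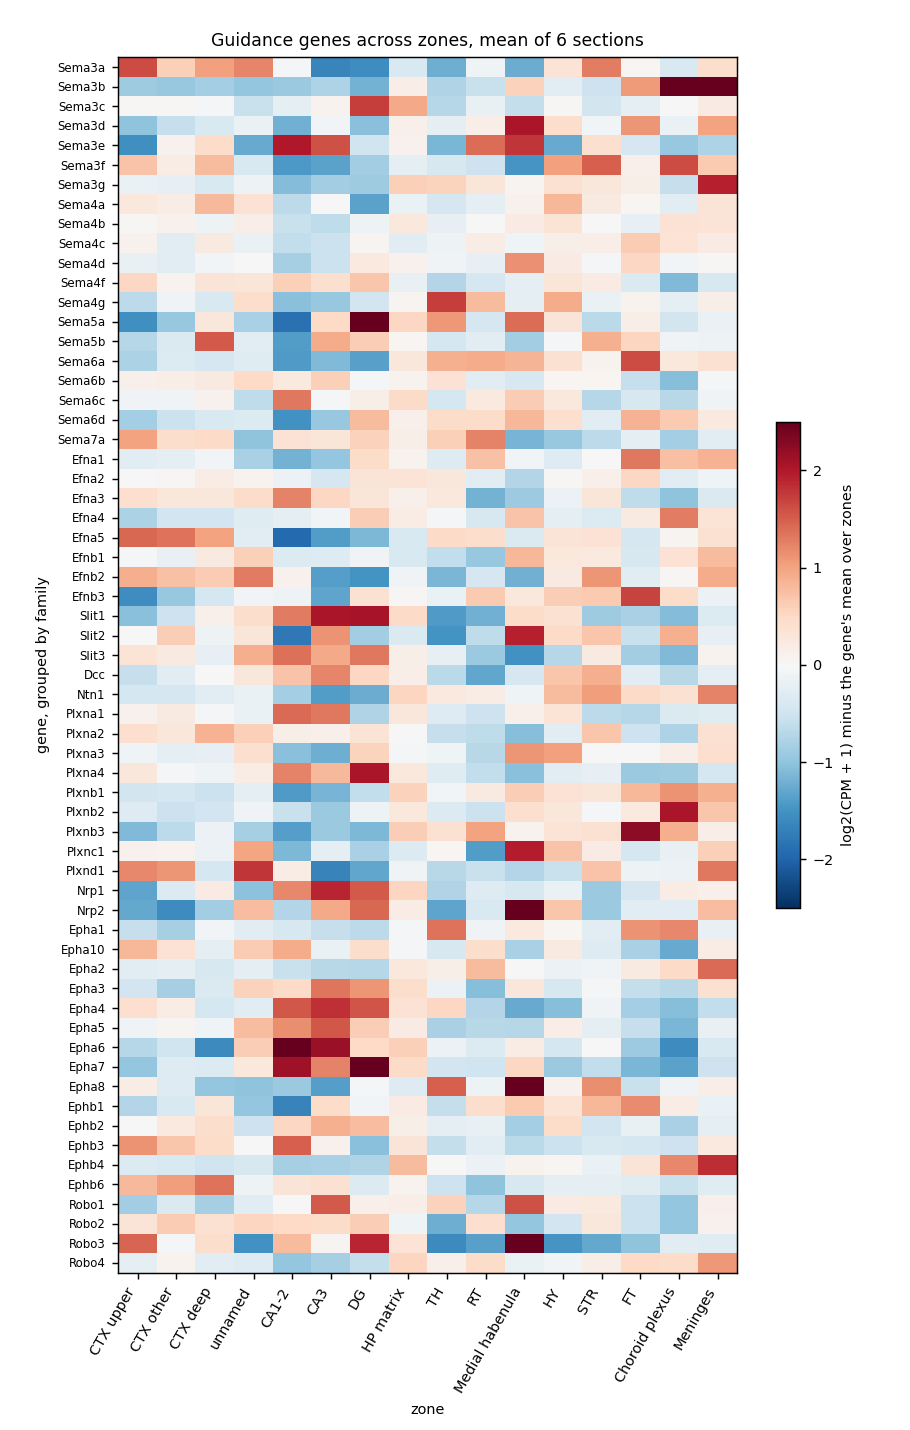
Levels of the members across anatomical zones, as log2(CPM + 1) minus the member's mean over zones, with rows for members and columns for zones; colours saturate at 2.5 above or below the mean. Epha6, Epha4 and Epha7 stand out in CA1-2, CA3 and DG, and Robo3, Nrp2 and Plxnc1 in the medial habenula.

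Over the 6 large regions, 25 of the 56 members tested in the joint fit had the same highest region in all 6 sections. Of all 11338 genes so tested 34.4% did, a set that includes the variable genes used for the clustering, from which the members had been left out. HP was highest for 11 members (Epha3, Epha4, Epha5, Epha6, Epha7, Nrp1, Plxna1, Plxna4, Sema3e, Slit1 and Slit3) and FT for 7 (Efna1, Efnb3, Ephb1, Plxnb1, Plxnb3, Sema4d and Sema6d). CTX was highest for Efna5, Ephb3 and Ephb6, HY for Plxna3, Plxnc1 and Sema4a, and TH for Sema4g. Efnb3, an ephrin-B ligand known from the spinal midline, measured 363 and 415 CPM in FT at P21, 407 and 411 in the adult and 571 and 495 in the aged sections. In CTX it measured 89.7 and 89.0, 71.1 and 72.9, and 67.3 and 51.9 CPM, below the FT value of every section.

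Several members followed the summed level of cell type markers across zones. The correlations below describe 90 zone-by-section points, log values centred within each section, which share libraries and spots and carry no test. The medial habenula, with 0 spots in adult replicate 1, is not among these points. Plxnb3 followed the oligodendrocyte list (Mbp, Mog, Mag and others) with r = 0.97. Sema6a followed the lists of newly formed oligodendrocytes and oligodendrocyte precursors (OPC), each with r = 0.89. The newly formed list shares Tcf7l2 with the marker panel of TH. Its summed level was 507 and 522 CPM in aged TH against 187 and 207 in aged FT, so it does not follow that cell stage alone. Plxnb1 was nearest to the OPC list (r = 0.89), with the astrocyte list at 0.88. Ntn1 was also nearest to the OPC list (r = 0.81), with the mural list at 0.80. Ephb4, a receptor of veins, was nearest to meningeal fibroblasts (r = 0.90), with mural cells at 0.87. Sema3g was nearest to mural cells (r = 0.81), with the endothelial list at 0.80. Robo4, the endothelial Robo, reached r = 0.81 with both the endothelial and the mural list. Such near ties do not single out a cell type. Sema6b followed the pan-neuronal list (r = 0.86). Robo3 (0.08) and Sema5a (0.18) had a low correlation even with the list nearest to them, over points that leave out the habenula, where Robo3 peaked.

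Spatial structure was also scored in the deposited files by Moran's I, which is near 0 for a gene scattered at random over the section and rises as neighbouring spots become alike. The members' median was 0.104 and 0.0615 at P21, 0.0756 and 0.0632 in adult and 0.1888 and 0.2059 in aged sections, against 0.0166, 0.0113, 0.0136, 0.0127, 0.0226 and 0.0295 for all genes scored. In every section the members' median therefore lay above that of all genes. The genes scored numbered 17185 to 19363 per section, while 15417 genes in all had at least 100 UMIs, so they include scarce ones. Members and all genes were not matched for depth, and the part of depth in this gap was not tested. Above the 90th percentile in all 6 sections were 17 members, led by Sema7a and Epha4, and Sema4b and Epha2 lay below the 50th percentile in all 6. Both aged sections exceeded the other 4 for 49 of the 62 members, where 55.0% of all genes scored in every section did so. Slide version and age cannot be told apart in that difference.

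Development was addressed by comparing P21 with adult sections in each region. All members called were higher at P21: 19 of the 56 tested members were called higher in at least 1 region, 0 were called lower and 37 were called in none. The share of all genes called in at least 1 region is not given here. By test, 41 of 332 member-by-region tests were called higher and 0 lower, against 3.80% and 2.23% of the tests of all genes. Semaphorins made up most of the members called, with Sema6a higher in 5 regions and Sema3d in 5. The plexin Plxnb3, a partner of semaphorins, was higher in 4. EphB receptors, ephrin-B ligands, Slits, Ntn1 and Dcc had no call. A test in a region needed detection in more than 10% of its spots at 1 of the ages compared. Some scarce members passed this through P21 alone, such as Sema3d in HP, TH, STR and CTX and Epha8 in HP and CTX. A lower call was hardly possible in such tests. The same filter was applied to all genes. The calls required a change over 1.5-fold and an adjusted p below 0.05 in edgeR's quasi-likelihood test on the section sums, with Benjamini-Hochberg adjustment over all genes tested in the region, and all adjusted p-values below come from these fits.

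Called higher at P21 were 9 of 55 tested members in CTX (3.49% of all genes), 12 of 56 in HP (5.18%), 4 of 56 in TH (4.33%), 1 of 54 in HY (1.83%), 4 of 56 in STR (2.88%) and 11 of 55 in FT (5.05%). The count in HY is close to the share of all genes. Called lower were 0 in each region, where 2.04% of all genes were in CTX, 1.67% in HP, 2.75% in TH, 1.82% in HY, 1.20% in STR and 3.91% in FT. Of 332 member-by-region tests, 28 were lower and 113 higher at an unadjusted p below 0.05 in edgeR. DESeq2 also called 0 lower, with 21 lower and 82 higher at an unadjusted p below 0.05. The shares of all genes at this limit are not given here. The median member log2 fold change was 0.18 in CTX, 0.21 in HP, 0.28 in TH, 0.07 in HY, 0.20 in STR and 0.05 in FT, against -0.02, -0.02, -0.01, -0.01, -0.00 and -0.01 over all genes. Without P21 replicate 1 the count was 5 in CTX, 0 in HY and 2 in STR, and without P21 replicate 2 it was 5 in CTX, 6 in HP and 0 in HY. Without adult replicate 2 it was 5 in CTX, 5 in HP and 3 in HY, and without either aged section it was 4 in HY.

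**Figure D2:**
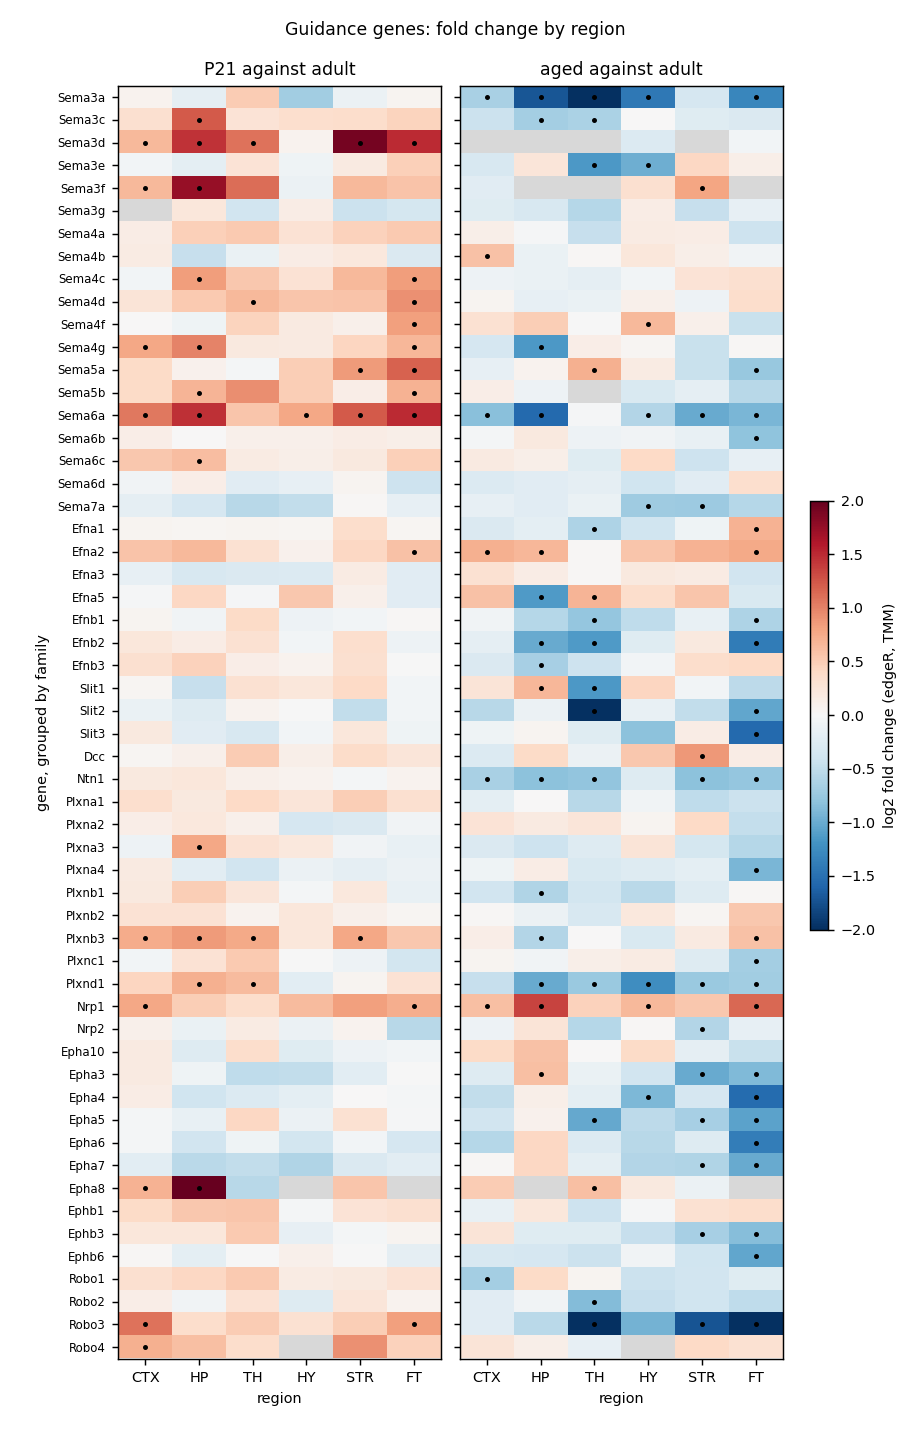
Log2 fold change of each member (rows) in each region (columns), P21 over adult on the left and aged over adult on the right; colours saturate at 2 in either direction, grey cells were not tested and dots mark the calls. Called cells are all higher on the P21 side, and most are lower on the aged side.

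Sema6a, a membrane-bound semaphorin that acts on A-type plexins, had the smallest adjusted p of the P21 calls. In FT it measured 343 and 407 CPM at P21, 137 and 144 in the adult and 76.3 and 72.5 in the aged sections. The age groups did not overlap, and the P21 excess was 1.49 ± 0.10 (log2 fold change ± SE, adjusted p = 1.32e-08). In HP Sema6a measured 93.9 and 92.0, then 31.9 and 34.8 CPM, a log2 fold change of 1.46. It was also called in STR (1.23), CTX (1.06) and HY (0.78), whereas in TH (154 and 147 against 105 and 104 CPM) the difference of 0.55 passed the test at adjusted p = 0.000763 but not the fold.

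Sema3d, a secreted semaphorin, was scarcer. In FT it measured 23.3 and 28.7 CPM at P21 against 8.18 and 10.8 in the adult sections, a log2 fold change of 1.49 ± 0.20 (adjusted p = 3.77e-05). Both P21 values lay above both adult values there and in HP, TH, STR and CTX, where it was called too, by 0.65 (CTX) to 1.91 (STR). In HP, TH, STR and CTX Sema3d passed the detection filter through P21 alone, so a lower call was hardly possible there. In STR the adult values rested on 7 and 9 UMIs in 168 and 148 spots. Sema4g, a membrane-bound semaphorin, was higher in CTX (29.1 and 28.7 against 17.0 and 17.0 CPM, 0.77 ± 0.11, adjusted p = 0.000322), in HP (0.99) and in FT (0.67). In TH, its highest region, Sema4g measured 88.6 and 93.9 against 81.2 and 81.5 CPM and was not called (0.19, adjusted p = 0.16). Its excess at P21 was thus called in 3 regions with a lower level and not in the region where it was highest.

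Sema5a, whose receptors include A-type plexins, measured 121 and 143 CPM in FT at P21 against 65.9 and 55.4 in the adult (1.18 ± 0.11, adjusted p = 4.7e-07) and was also called in STR (0.85). In HP its values of 152 and 190 against 161 and 156 CPM overlapped. Sema4f was called in FT alone, at 38.8 and 33.9 against 22.7 and 21.2 CPM (0.81 ± 0.13, adjusted p = 0.000265), and in HP it measured 37.2 and 34.5 against 37.7 and 37.7 CPM. Sema4d was higher in FT (0.92) and TH (0.65), Sema4c and Sema5b in FT and HP, Sema3f in CTX and HP, and Sema6c in HP. Sema3c was called in HP only, where it measured 65.5 and 66.6 CPM at P21 against 28.0 and 27.7 in the adult sections (1.23 ± 0.11, adjusted p = 2.76e-05). Within HP, its DG level was 150 and 176 CPM at P21, 34.6 and 25.8 in the adult and 12.3 and 13.6 in the aged sections, with no overlap between the ages, while in the surrounding HP matrix (areas between the cell layers) it lay between 34.3 and 49.5 CPM at all ages.

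Among the receptors, Plxnb3 was higher at P21 in CTX (23.8 and 27.2 against 15.7 and 14.5 CPM, 0.74 ± 0.12, adjusted p = 0.000846), HP (0.86), STR (0.78) and TH (0.75). In FT, its highest region, it measured 132 and 163 against 111 and 101 CPM, and the difference of 0.53 did not pass the fold (adjusted p = 0.00152). Nrp1, a co-receptor for class 3 semaphorins and for vascular endothelial growth factor, was higher in CTX (20.2 and 20.6 against 11.7 and 12.2 CPM, 0.77) and FT (0.73). Plxna3 was called in HP (24.0 and 27.7 against 14.7 and 14.8 CPM, 0.77 ± 0.16, adjusted p = 0.00605) and Plxnd1 in HP (0.71) and TH (0.63). The Plxna3 call was lost without P21 replicate 2 (0.68) and without either adult section (0.76 and 0.78).

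Epha8 changed in opposite directions by region. In HP it measured 10.2 and 8.62 CPM at P21 against 2.42 and 2.12 in the adult, the highest log2 fold change among the members' P21 calls (2.06 ± 0.27, adjusted p = 0.000452), and it was higher in CTX as well (0.69). The adult HP level was near the floor, with 6 and 8 UMIs in the HP matrix and 3 and 5 in DG. In HP and CTX Epha8 passed the detection filter through P21 alone. In TH it measured 12.8 and 14.3 against 22.3 and 17.9 CPM, with P21 below adult in each section (-0.55, adjusted p = 0.033, under the fold). Robo3 was higher at P21 in CTX (1.08) and FT (0.83), Robo4 in CTX (0.71) and Efna2, an ephrin-A ligand, in FT (0.59). The remaining Robo, ephrin and Eph genes had no call.

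Differences towards a lower level at P21 were smaller. In 15 member-by-region tests the adjusted p was below 0.05 without the fold, 6 in HP (Efna3, Epha4, Epha6, Epha7, Sema7a and Slit1), 5 in TH and 4 in FT. The share of all genes at this limit is not given here, so the count is not a result about the members. Epha4 in HP measured 488 and 500 CPM at P21 and 624 and 665 in the adult (-0.40 ± 0.09, adjusted p = 0.00775), and Epha7 245 and 271 against 378 and 365 (-0.54). Sema7a, a membrane-anchored semaphorin, measured 212 and 219 CPM in TH at P21 against 325 and 320 in the adult (-0.56 ± 0.08, adjusted p = 0.00121). Slit1 in HP measured 201 and 183 against 260 and 264 CPM. The EphA family had a median log2 fold change of -0.11 over its 40 tests, the class 3 semaphorins 0.27 over 35 and the other semaphorins 0.27 over 78.

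The following members had no call at P21 in any region. Efnb3 in HP measured 170 and 173 CPM at P21 against 122 and 124 in the adult (0.46, adjusted p = 0.00787), Robo2 in STR 141 and 152 against 130 and 122 (0.24, adjusted p = 0.188), and Ephb6 in HP 63.5 and 72.6 against 72.1 and 80.3 (-0.19, adjusted p = 0.256). Dcc in TH measured 18.6 and 20.5 against 16.5 and 11.5 CPM (0.51, adjusted p = 0.0669), and Plxna2 in STR 115 and 126 against 144 and 155 (-0.29, adjusted p = 0.134). None of these 5 was called, and the values of Ephb6 overlapped between the ages. Nrp2 in FT measured 27.2 and 24.9 against 37.8 and 43.3 CPM (-0.55, adjusted p = 0.0034) and crossed the fold under 4 alternative settings.

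**Figure D3:**
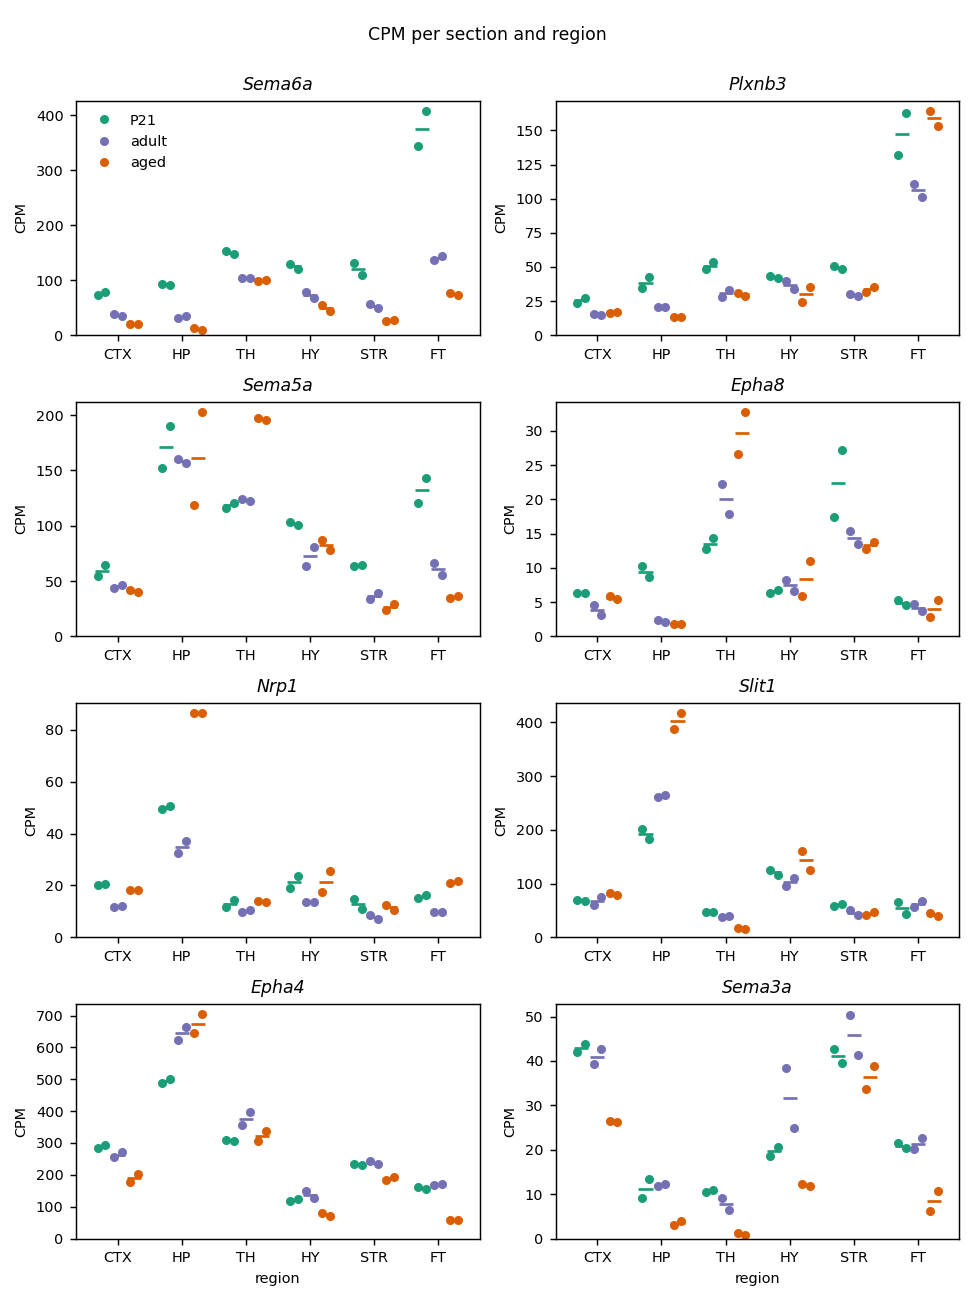
Level (CPM) of 8 members in each of the 6 sections, with regions along the x axis, the ages in colour, a point for each section and a short bar at the mean of each age. Sema6a falls from P21 to adult to aged in FT, Nrp1 is lowest in the adult sections of HP, and Epha4 in FT is lower in the 2 aged sections than in the other 4.

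Cell type markers moved with the P21 excess. Of 48 tests of 8 oligodendrocyte markers over the 6 regions 47 were called higher at P21, with medians of 0.97 to 1.62, and of 24 tests of newly formed oligodendrocyte markers 21 were called higher. In FT the summed oligodendrocyte level was 56680 and 68580 CPM at P21 and 32920 and 31980 in the adult sections. OPC markers were called higher in 11 of 30 tests, meningeal fibroblast markers in 16 of 22, endothelial markers in 5 of 36 and erythrocyte markers in 18 of 18. Pan-neuronal markers had 0 calls of 36 in either direction. The part of these cell types in the members' differences was not tested. The members called higher at P21 included Sema6a and Plxnb3, which followed oligodendrocyte-lineage markers over zones, as well as Sema5a and Nrp1, whose correlation with their nearest list was 0.18 and 0.09.

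Whether the P21 difference depended on the region was tested by the interaction of age and region over all 36 sums. It passed for 17 of 56 members, where 11.8% of all genes did. The smallest adjusted p-values were those of Epha8 (8.11e-05), Sema4g (0.000217), Sema6a (0.000316), Sema5a (0.0024), Epha5 (0.00476), Epha4 (0.00484), Plxna3 (0.00513) and Sema4f (0.00528). Epha5, an EphA receptor, measured 85.2 and 70.8 against 57.8 and 62.0 CPM in TH and 173 and 176 against 182 and 200 CPM in HP. The count depended on single sections: it was 4 without either P21 section, 7 and 5 without adult replicates 1 and 2, and 34 and 32 without aged replicates 1 and 2, which enter the shared estimate of the spread.

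Ageing was addressed by comparing aged with adult sections. The same adult sections serve both comparisons, so their values are given side by side only. Here most called members were lower: 33 of the 56 tested members were called lower in at least 1 region, 13 higher, 6 of them both higher and lower in different regions, and 16 in none. The share of all genes called in at least 1 region is not given here, and the shares by region follow below. Sema3a, Sema6a, Plxnd1 and Ntn1 were lower in 5 regions each, and Nrp1 was higher in 4. The EphA receptors had 10 lower calls in 40 tests, 5 of them in FT, and the ephrin-A ligands were the ligand family with more higher than lower calls (5 and 2 of 24 tests). Over the 6 regions 18 member tests were called higher and 64 lower. Of the tests of all genes 7.64% were called higher and 7.16% lower. Here too some scarce members passed the detection filter through 1 age, such as Robo3, Sema3a and Slit2 in TH, which passed through adult alone. A higher call was hardly possible in such tests. All genes were filtered in the same way.

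In CTX 3 members were higher and 4 lower of 55 tested (6.28% and 4.20% of all genes), in HP 4 and 11 of 53 (5.79% and 5.98%), and in TH 3 and 13 of 53 (6.87% and 6.96%). In HY 2 were higher and 6 lower of 55 (6.42% and 5.04%), in STR 2 and 10 of 55 (8.09% and 6.30%), and in FT 4 and 20 of 54 (12.4% and 14.5%). The median log2 fold change of the members was -0.16, -0.07, -0.24, -0.07, -0.20 and -0.44 in that order, against -0.02, 0.00, 0.01, -0.02, -0.00 and -0.05 over all genes. In each of the 6 regions the share of members called lower exceeded that of all genes, by the least in CTX. The share of members called higher lay below that of all genes in every region except HP. Without adult replicate 1 the STR count was 6 instead of 12, and without aged replicate 2 the HY count was 15 instead of 8. A cluster of 559 fiber tract spots led by C4b, 89.8% of them from aged sections, moved with the FT result, and without it 14 members were called in FT instead of 24, with a median of -0.11.

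Among the secreted semaphorins, Sema3a, a repellent of cortical axons, was called lower in 5 of 6 regions, STR being the exception. In TH it measured 10.5 and 10.9 CPM at P21, 9.17 and 6.36 in the adult and 1.16 and 0.806 in the aged sections, a fall of 2.91 ± 0.29 on the log2 scale (-2.91, adjusted p = 5.15e-05). The aged level was near the floor, resting on 15 and 10 UMIs in TH, where Sema3a passed the detection filter through adult alone. The aged sections lay below all others there and in CTX, where the values were 42.0 and 43.8, 39.3 and 42.7, and 26.5 and 26.3 CPM (-0.65). Falls in HP, HY and FT were -1.71, -1.43 and -1.31. Sema3c was lower in HP and TH, Sema3e in TH (16.0 and 20.4 against 6.75 and 9.44 CPM, -1.14 ± 0.20, adjusted p = 0.00152) and HY, and Sema3f was higher in STR (0.79).

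Sema6a, already lower in adult than in P21 sections, was lower again in aged ones. In HP it measured 31.9 and 34.8 CPM in the adult and 12.5 and 9.82 in the aged sections (-1.55 ± 0.15, adjusted p = 3.22e-05). It was called lower in STR (-1.01), FT (-0.91), CTX (-0.84) and HY (-0.59), while in TH it measured 105 and 104 against 98.6 and 101 CPM (-0.03, adjusted p = 0.787). TH was therefore the region in which Sema6a was called in neither comparison. Sema5a was higher in TH, at 198 and 196 CPM against 124 and 122 (0.71 ± 0.08, adjusted p = 7.21e-05), and lower in FT (-0.76). Sema7a was lower in HY (-0.72) and STR (-0.72), Sema4g in HP (-1.15) and Sema6b in FT (-0.80), and Sema4b was higher in CTX (0.59) and Sema4f in HY (0.64).

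Nrp1 stood apart among the semaphorin receptors. In HP it measured 49.4 and 50.5 CPM at P21, 32.3 and 37.3 in the adult and 86.4 and 86.3 in the aged sections (1.35 ± 0.11 aged over adult, adjusted p = 1.56e-05). The adult sections were lowest and the aged ones highest without overlap. It was also higher in FT (1.14), HY (0.64) and CTX (0.60). Within HP the aged level was above the adult level in CA1-2 (71.1 and 76.5 against 34.3 and 37.8 CPM), in CA3 (108 and 107 against 64.7 and 65.8 CPM) and in DG (73.7 and 90.01 against 29.6 and 33.6 CPM), without overlap in any of the 3 cell layers. The HP matrix between the layers also rose without overlap, at 51.24 and 43.15 CPM against 15.43 and 19.53. Nrp2 was lower in STR (24.3 and 23.6 against 15.8 and 16.0 CPM, -0.59, adjusted p = 0.0193), a call lost by DESeq2 and without adult replicate 1 or 2 or aged replicate 1.

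Of the plexins, Plxnd1 was lower in 5 regions. In STR it measured 89.0 and 95.3 CPM in the adult and 54.4 and 55.9 in the aged sections (-0.74 ± 0.11, adjusted p = 5.18e-05), and in HY 48.8 and 37.5 against 17.5 and 19.5 (-1.25). Plxnb3 was higher in FT, at 164 and 153 CPM against 111 and 101 (0.59 ± 0.11, adjusted p = 0.000186), and lower in HP, at 13.5 and 13.2 against 21.0 and 20.4 (-0.59). Plxna4 and Plxnc1 were lower in FT and Plxnb1 in HP. Plxna2, the plexin with most UMIs, measured 80.3 and 72.7 against 58.5 and 50.5 CPM in FT (-0.48, adjusted p = 0.0011) and 144 and 155 against 212 and 183 CPM in STR (0.40, adjusted p = 0.00485), both under the fold.

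Ephrin ligands moved both ways. Efnb2, an ephrin-B ligand of arteries and neurons, was lower in FT (29.8 and 30.2 against 11.2 and 11.4 CPM, -1.39 ± 0.17, adjusted p = 3.26e-06), TH (-1.13) and HP (-1.01). Efnb1 was lower in FT and TH, and Efnb3 was lower in HP at 67.2 and 82.4 CPM against 122 and 124 (-0.67 ± 0.10, adjusted p = 0.000483), a call lost without aged replicate 1 (-0.57). In FT, where Efnb3 was highest, its difference was 0.39 (adjusted p = 0.00291), under the fold. Efna2 was higher in CTX (12.5 and 9.94 against 6.87 and 6.58 CPM, 0.72 ± 0.16, adjusted p = 0.00336), FT (0.76) and HP (0.67), and the CTX call was lost without aged replicate 1 (0.53). Efna5 was higher in TH (0.67) and lower in HP (-1.14). In CTX, its highest region, Efna5 measured 126 and 117 CPM against 77.7 and 82.8 (0.58 ± 0.09, adjusted p = 0.000229) and fell just short of the fold.

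EphA receptors were lower in FT. Epha4 measured 161 and 155 CPM at P21, 169 and 171 in the adult and 58.7 and 58.0 in the aged sections (-1.53 ± 0.09, adjusted p = 8.42e-10). Epha6 measured 79.8 and 78.8 against 31.9 and 28.5 CPM (-1.38), Epha5 77.5 and 86.8 against 40.8 and 36.7 (-1.07) and Epha7 68.8 and 66.4 against 33.7 and 32.9 (-1.01), each without overlap of the ages. In HP, where the 4 receptors were highest, Epha4 measured 624 and 665 CPM in the adult and 645 and 704 in the aged sections (0.11, adjusted p = 0.348), and Epha6 measured 301 and 306 against 393 and 393 (0.42, adjusted p = 0.00276). No EphA receptor was called lower in HP, and Epha3 was called higher there (0.61). Epha8 was higher in TH (0.61). Ephb3 and Ephb6 were lower in FT, the latter at 70.6 and 56.9 against 29.0 and 32.7 CPM (-1.04 ± 0.13, adjusted p = 3.63e-06). Without the spots led by C4b the FT values were -1.10 for Epha4, -0.88 for Epha6, -0.61 for Ephb6, -0.53 for Epha5 and -0.46 for Epha7, and the last 2 were no longer called.

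Slit1, a repellent ligand of Robo receptors, was called higher in HP, its highest region, and lower in TH, and in no other region. Zones with low levels elsewhere went both ways. In upper CTX Slit1 measured 38.2 and 45.1 CPM in the adult and 52.1 and 49.2 in the aged sections. It measured 56.0 and 54.2 against 24.1 and 30.8 CPM in RT and 55.8 and 67.0 against 44.7 and 39.7 in FT. In the choroid plexus it measured 48.2 and 36.8 against 15.0 and 27.0 CPM. The part of level in these differences was not tested. In HP it measured 201 and 183 CPM at P21, 260 and 264 in the adult and 387 and 416 in the aged sections (0.66 ± 0.09, adjusted p = 0.000204). In TH it measured 47.9 and 46.7, 37.9 and 40.0, and 18.3 and 15.9 CPM (-1.15 ± 0.11, adjusted p = 4.77e-05). Within HP the aged sections were above the adult ones in DG (450 and 563 against 409 and 390 CPM) and CA3 (477 and 477 against 355 and 363 CPM), while the CA1-2 values of 246 and 254 against 252 and 232 CPM overlapped. The aged sections were also above the adult ones in the HP matrix (195.2 and 165.7 against 108.0 and 117.6 CPM). Slit2 was lower in TH (-2.11) and FT (-1.04) and Slit3 in FT (-1.56).

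Robo3 had the largest called fall among the receptors. In TH it measured 13.0 and 10.2 CPM at P21, 8.80 and 7.95 in the adult and 1.24 and 0.968 in the aged sections (-2.87 ± 0.26, adjusted p = 2.69e-05), and it was lower in FT (-2.38) and STR (-1.72). These aged levels were near the floor, resting on 16 and 12 UMIs in TH and 12 and 11 in FT. In TH, FT and STR Robo3 passed the detection filter through adult alone, so a higher call was hardly possible there. The aged values in the medial habenula, given above, were by contrast the highest of the 5 sections with that zone. Robo2 was lower in TH (48.8 and 44.8 against 21.7 and 28.5 CPM, -0.86 ± 0.13, adjusted p = 0.000579) and Robo1 in CTX (-0.68). Ntn1 was lower in FT (21.3 and 23.7 against 13.0 and 13.2 CPM, -0.77 ± 0.16, adjusted p = 0.000721) and in CTX, HP, STR and TH by -0.65 to -0.83. Its receptor Dcc was higher in STR, at 69.1 and 60.2 CPM against 34.0 and 36.7 (0.87 ± 0.14, adjusted p = 7.34e-05).

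The make-up of the aged regions differed too. In aged FT, pan-neuronal markers were called lower in 4 of 6 tests (median -0.71, summed level 2233 and 2308 CPM against 4524 and 4251), microglial markers higher in 4 of 5 (median 1.22, 1093 and 1171 against 391.6 and 431.5 CPM) and astrocyte markers higher in 3 of 6. In HP all 8 oligodendrocyte markers were lower (2660 and 2278 against 5364 and 4840 CPM), beside the lower Sema6a, Plxnb3 and Plxnb1. HP matrix spots numbered 130 and 114 in the aged and 238 and 284 in the adult sections, so the cell layers made up more of HP in the aged sections. In TH, choroid plexus markers stood at 74.9 and 47.8 CPM against 930.9 and 613.7. The part of these shifts in the members' differences was not tested.

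The aged difference depended on region for most members. The interaction passed for 44 of 56, where 48.2% of all genes passed. Epha4 had the smallest adjusted p (7.59e-10), followed by Slit1 (5.96e-08), Epha6 (6.52e-08), Epha5 (6.57e-08), Efnb3 (9.32e-07), Epha7 (1.24e-06), Robo3 (2.02e-06) and Efna5 (2.18e-06). For each of the 8 the region with the highest mean level was not called lower, while at least 1 other region was. These 8 were picked by this p, which is small where regions differ, and the mean level included the aged sections. The sentence therefore only describes them.

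How the aged difference ran with level was described over all tested members by ranking each member's regions by their P21 level. That level takes no part in the difference between aged and adult sections. In the region ranked 1, 8 of 56 tests were called higher and 4 lower, with a median log2 fold change of 0.14, against calls for 13.0% (higher) and 2.18% (lower) of all genes. In the region ranked 5, 0 of 53 were higher and 20 lower (median -0.46), against 5.44% and 9.99% of all genes. In the region ranked 6, 0 of 52 were higher and 19 lower (median -0.41), against 4.64% and 15.0% of all genes. In plain CPM the median log2 ratio of aged over adult ran from 0.1 in the region ranked 1 to -0.42 in the region ranked 6 for members, and from 0.1 to -0.15 for all 11338 genes. The decline with rank was thus present over all genes and steeper in the members' medians.

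Regional contrast, the log2 ratio of the highest region over the mean of the other 5, gave the same picture by section. For the 25 members with a constant highest region its median was 1.03 and 1.12 at P21, 1.17 and 1.16 in adult and 1.60 and 1.69 in aged sections. Both aged sections lay above the other 4 for 23 of the 25, where 61.8% of all 3901 genes with a constant highest region did so. Both P21 sections lay below both adult sections for 15 of the 25, against 34.4% of all such genes. A set of 49 marker genes used to name the regions had medians of 2.57 and 2.46, 2.20 and 2.50, and 3.37 and 3.06, and the 3876 other genes 0.65 and 0.70, 0.69 and 0.74, and 0.99 and 0.99. Contrast was therefore higher in the aged sections for markers, members and other genes alike, and slide version and age cannot be told apart in it.

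**Figure D4:**
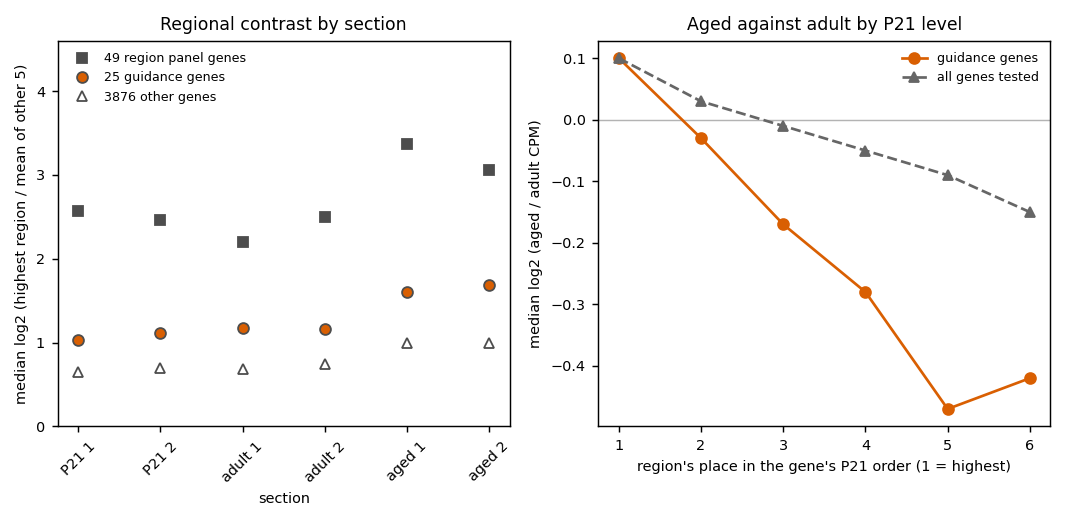
Left, median regional contrast (log2 of the highest region over the mean of the other 5) in each section for region markers, members and other genes. Right, median log2 ratio of aged over adult CPM against the rank of the region at P21 for members and all genes. Contrast is highest in the 2 aged sections in all 3 gene groups, and the members' ratio falls from 0.1 at rank 1 to -0.42 at rank 6.

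Genes that act downstream of or beside the members were followed from a list of 57, of which 56 were in the files and 53 tested. At P21, 10 were called higher in at least 1 region and 2 lower (31 and 2 of 312 tests, where 3.80% and 2.23% of the tests of all genes over the 6 regions were called). Fyn, a kinase in semaphorin signalling that is also needed for myelination, measured 392 and 474 CPM in FT at P21 against 167 and 152 in the adult (1.51 ± 0.10, adjusted p = 1.51e-08). The collapsin response mediator genes, which relay semaphorin signals to the cytoskeleton, included Dpysl5 in HP (69.0 and 70.1 against 23.6 and 25.1 CPM, 1.49), Dpysl3 in HP (0.98) and Dpysl4 in FT (0.88). In the aged sections 13 pathway genes were called higher and 23 lower in at least 1 region (22 and 40 of 313 tests, against 7.64% and 7.16% of the tests of all genes). The count of higher tests is close to the share of all genes. Chn1 (-1.34), a Rac GTPase-activating protein acting below EphA4, Tiam1 (-1.44), a Rac exchange factor, and Ngef (-1.04), an exchange factor bound by EphA receptors, were lower in FT, and the kinase Pak1 in STR (-0.99). For Chn1 this was 370 and 353 CPM in the aged FT against 967 and 874 in the adult and 666 and 618 at P21, so that the aged sections were lowest.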

How the data were processed

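Deposited UMI counts per spot and gene, made by the authors from Visium FFPE reads and per the labels with Space Ranger 2.1.0 on mm10 (file headers name 2.0.0 for P21 and adult and 3.1.1 for aged sections), were used as given. Moran's I is a score the authors deposited per gene and section. Authors' clusters and normalized values were not used here. Spots with at least 250 genes and 500 UMIs were kept, giving 20336 spots. Each section's counts were log-normalized and clustered together (3000 variable genes, 10 principal components, 20 neighbours, Leiden resolution 0.6, leidenalg 0.10.2), leaving out 118 members and pathway genes. Clusters took the name of a marker panel when it led the next by 0.3, a lead raised from 0.2 after the clusters had been seen. Doublet removal does not apply to spots.

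The replicate is the section (n = 2 per age), each from its own mouse per the labels. Sums of UMIs over the spots of a section and region were tested in R 4.3.3 with edgeR 4.0.16 (quasi-likelihood, TMM factors 0.954 to 1.028, age as the factor, all 6 sections in a fit per region). A gene was tested if it passed filterByExpr, and had a UMI in 10% or more of all spots and in more than 10% of spots of that region in 1 of the ages under comparison. Calls needed a change above 1.5-fold with an adjusted p under 0.05. The interaction of age and region was fitted over 36 sums with section as a block. Regional contrasts and rank ratios used log2 CPM with a pseudocount of 0.1. The scripts were tested on simulated data. Depth, 42422997 to 106783660 UMIs per section, limits scarce members most.

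Members, lists and tests were chosen with earlier results of these data known. Section values were given for members called in 3 or more regions in a direction, the 8 with the smallest interaction p per comparison, and the member with most UMIs per family; Sema3c and other members outside this rule were named after their values were seen. Alternatives were library size scaling, filterByExpr alone, DESeq2 1.42.0, interior spots, a Leiden resolution of 0.8, a replicate block, a fit without FT and each section left out; fits on P21 and adult sections only and FT without its C4b-led cluster were added after seeing the data. A marker gene of the oligodendrocyte and FT lists helped to name clusters but is not reported here and was left out of list values.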

Additional observations from a re-analysis of the deposited data

Results flagged for a closer look

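The difference between ages itself differed between regions for the following members, by the interaction test of edgeR over 36 sums, with adjusted p-values. Between P21 and adult sections these were Epha8 (8.11e-05), Sema4g (0.000217), Sema6a (0.000316), Sema5a (0.0024), Epha5 (0.00476), Epha4 (0.00484), Plxna3 (0.00513) and Sema4f (0.00528). Epha8 was higher at P21 in HP by 2.06 and lower in TH by -0.55 on the log2 scale, and Sema4f was higher in FT by 0.81 with -0.08 in HP. The HP value of Epha8 rested on few adult UMIs. Between aged and adult sections these were Epha4 (7.59e-10), Slit1 (5.96e-08), Epha6 (6.52e-08), Epha5 (6.57e-08), Efnb3 (9.32e-07), Epha7 (1.24e-06), Robo3 (2.02e-06) and Efna5 (2.18e-06). Epha4 was lower in aged FT by -1.53 with 0.11 in HP, and Slit1 was higher in HP by 0.66 and lower in TH by -1.15. Slide version and age cannot be told apart in the aged values.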

How the results depend on the processing

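Of 182 alternatives of 15 counts, 157 stayed within 1.5 times the value reported. Of 551 alternatives of 43 named member values 523 kept the side of the threshold, 11 lost the call and 17 gained one. A change of direction with a call in either fit occurred in 0. Changes of direction where neither fit made a call were not counted apart and lie within the 523. At P21, interior spots gave 9 members in TH (4 reported), DESeq2 gave 7 in FT (11), and fits on P21 and adult sections only gave 4 in HY (1) and 32 interactions (17). For aged sections DESeq2 gave 7 in STR (12), and FT without its C4b-led cluster gave 14 (24). With each section left out in turn, P21 counts ran from 5 to 9 in CTX, 5 to 13 in HP, 3 to 6 in TH, 0 to 4 in HY, 2 to 4 in STR and 9 to 12 in FT, and P21 interactions from 4 to 34. Aged counts ran from 6 to 9 in CTX, 10 to 16 in HP, 14 to 18 in TH, 6 to 15 in HY, 6 to 13 in STR and 24 to 29 in FT, aged interactions from 30 to 47 and members with a constant highest region from 26 to 29. With a section left out, the count of members with a constant highest region, reported as 25, can only stay or rise, since fewer sections have to agree. These alternatives are among the 157 that stayed within 1.5 times. A fit that leaves an age with 1 section assumes that it varies like the others. The cause of these moves was not tested. Replicate numbers did not pair the sections (correlations of deviations from -0.4616 to 0.09359). With a replicate block the counts were 6, 12, 3, 1, 4 and 10 at P21 and 7, 16, 17, 9, 12 and 24 in aged sections, in the order CTX, HP, TH, HY, STR and FT. In the interaction fit the replicate number is contained in the section term and was not run. With 2 sections per age, differences near 1.5-fold and scarce members were at the limit of what could be called.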
